A study of Danio rerio with 4 samples.

Results

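The cartilage matrix proteins and aggrecans described here are 8 genes of the 32105 gene IDs counted by RNA sequencing in cells sorted from adult zebrafish brains. They are MATN1 (ENSDARG00000030215), MATN4 (ENSDARG00000015947), cnmd (ENSDARG00000100133), chad (ENSDARG00000045071), snorc (ENSDARG00000092383), acana (ENSDARG00000035891), acanb (ENSDARG00000045799) and hapln1a (ENSDARG00000089769). They were chosen by name and by their read counts in these same libraries, which separate genes high in B2 or B3 from aggrecan and link protein genes that brain matrix also uses. All values of that contrast are therefore a description, with no test.

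The 4 libraries, B2, B3, B1 and B4, form a single group. Each is a pool of 6 wildtype adult brains dissociated with Liberase, from which cells with EGFP driven by pdgfrb regulatory sequence were sorted, and the RNA was amplified. The titles and source names say pericyte, while the cell type label says muLEC, whose markers were not analysed here. The reporter selects any cell with pdgfrb activity, so a pool can hold several cell types. The design text speaks of triplicate samples, while 4 are listed. No unsorted sample was compared, and the columns match no sample number. Nothing beyond the pools says that the libraries are separate preparations, and the spread between them may be technical in part.

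Cartilage is an extracellular matrix in which collagen fibrils hold a gel of aggrecan, a large proteoglycan that binds hyaluronan with the help of link proteins. Matrilins are adaptor proteins that join collagen fibrils to proteoglycans, and small proteins such as chondroadherin tie the matrix to the cell surface. In brain, aggrecan and link proteins build a related hyaluronan matrix, including the nets around some neurons, without the fibrillar collagens of cartilage.

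Totals ran between 33270774 and 40441253 counts per library. Values are given as CPM, the counts of a gene scaled to a common library size, with edgeR's TMM factors to adjust for libraries dominated by a few genes. A gene with 3 counts, the floor used here, stands at 0.0751 to 0.0879 CPM. The reads were amplified without molecular identifiers, so floors and intervals cover counting error only. Of the 13 pericyte marker IDs, 12 reached 1 CPM in at least 1 library. PDGFRB itself, the receptor whose regulatory sequence drives the reporter, stood at 76.0 CPM in B2 and 121 CPM in B3, against 219 CPM in B1 and 46.1 CPM in B4.

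All 8 genes reached 1 CPM in at least 1 library and entered the comparison. The library contrast divides the higher CPM of B2 and B3 by the higher CPM of B1 and B4. A gene counted as high in B2 or B3 where this ratio was at least 4-fold. By that rule 5 of the 8 genes were high in B2 or B3, against 1.75% of the 18618 genes compared. None of the 8 was high by the same rule in B1 or B4, against 8.01% of all genes. The rule that chose the genes used this contrast, so nothing is read from either share. The 5 are MATN1, MATN4, cnmd, chad and snorc, and the other 3 are acana, acanb and hapln1a. In bulk samples, fewer cells of a type and less RNA per cell cannot be told apart, so no level here is a level per cell.

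**Figure D1:**
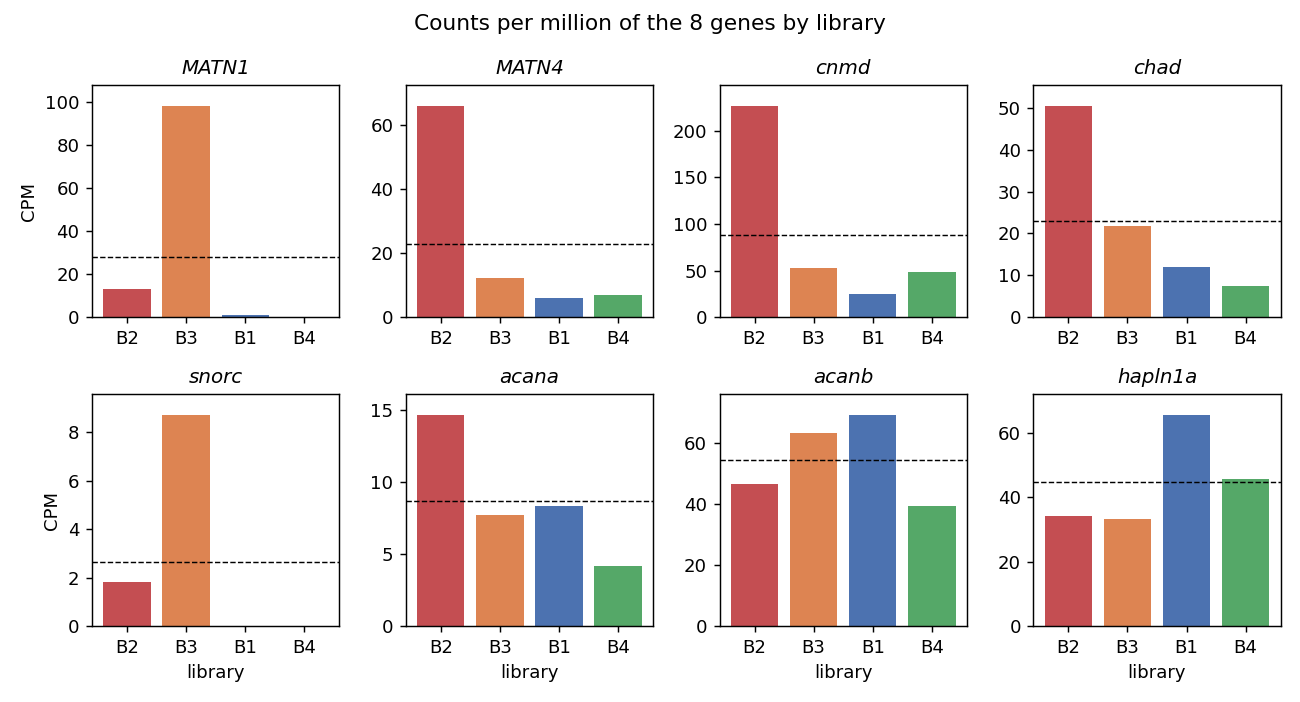
CPM of each of the 8 genes (vertical axes, linear, starting at 0 and scaled per gene) in libraries B2, B3, B1 and B4. Each bar is 1 library and the dashed line is the mean of the 4. MATN1 and snorc are highest in B3, MATN4, cnmd, chad and acana in B2, and acanb and hapln1a in B1.

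MATN1 encodes matrilin, a protein long known as cartilage matrix protein. It had 13.2 CPM in B2 and 98.0 CPM in B3, against 1.20 CPM in B1 and 0 CPM in B4. Those values rest on 489 counts in B2 and 3507 in B3, against 41 in B1 and 0 in B4. B3 held most of the reads, B2 stood between, and neither B1 nor B4 reached them. The mean was 28.1 ± 47.0 CPM (SD, n = 4), an SD larger than the mean. B3 over B1, the pair the contrast uses, was 81.5-fold, a log2 ratio of 6.35. Set against the 3-count floor of B4, B3 was at least 1305-fold higher. With counts under the floor set to it, only 4 of the 18618 genes had a larger library contrast than MATN1.

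MATN4 encodes another matrilin, which in mouse is also made outside cartilage. Its order of libraries differed from that of MATN1. It had 65.8 CPM in B2 and 12.3 CPM in B3, against 5.89 CPM in B1 and 6.96 CPM in B4. B2 stood apart, B3 was second, and B1 and B4 were close together with 201 and 278 counts. The mean was 22.7 ± 28.8 CPM (SD, n = 4), and the library contrast was 9.46-fold, a log2 ratio of 3.24. The log2 difference of B2 minus B3 was 2.42 for MATN4 and -2.89 for MATN1, opposite in sign.

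Within a library the counts of one gene per 100 counts of another can be followed between libraries, because the lengths of both genes stay the same. This measure was chosen after the values were seen. MATN1 had 20.1 counts per 100 counts of MATN4 in B2 and 797 in B3, against 20.4 in B1 and 0 in B4. The proportion of the matrilins was thus alike in B2 and B1 and far higher in B3. B2 and B1 nevertheless differed in level, by the values above.

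The gene cnmd encodes chondromodulin, a membrane glycoprotein of cartilage known in mammals for inhibiting blood vessel growth. It had 226 CPM in B2 and 52.2 CPM in B3, against 24.9 CPM in B1 and 48.5 CPM in B4. B2 stood apart, and B3 lay close to B4, with 1870 counts in B3 against 1937 in B4. The mean was 88.0 ± 93.0 CPM (SD, n = 4), and the contrast was 4.67-fold, a log2 ratio of 2.22. Read counts of cnmd were thus plentiful in all 4 libraries, and its place among the 5 rests on B2.

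The gene snorc encodes a small transmembrane chondroitin sulfate proteoglycan that chondrocytes make in mouse. It had 67 counts in B2 and 312 in B3, against 1 in B1 and 1 in B4. As CPM that is 1.81 in B2 and 8.72 in B3, against 0.029 in B1 and 0.025 in B4, with a mean of 2.65 ± 4.13 CPM (SD, n = 4). B3 over B1 was 297-fold, with a 95% counting interval of 53.0 to 11786. The library contrast, with libraries under 3 counts set to 3, was 99.2-fold, a log2 ratio of 6.63. Both B1 and B4 were under the 3-count floor, so snorc was not detectable there beyond single reads. Per 100 counts of cnmd, snorc had 0.80 counts in B2 and 16.7 in B3, against 0.12 in B1 and 0.05 in B4, a proportion also chosen after the values were seen.

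The gene chad encodes chondroadherin, a leucine-rich repeat protein that binds collagen and integrins. It had 50.4 CPM in B2 and 21.8 CPM in B3, against 12.0 CPM in B1 and 7.38 CPM in B4. Both B2 and B3 were above B1 and B4, and the order was B2, B3, B1 and B4. The mean was 22.9 ± 19.3 CPM (SD, n = 4), and the contrast was 4.21-fold, a log2 ratio of 2.07. Of the 5 genes, chad lay closest to the 4-fold threshold, followed by cnmd at 4.67-fold. The nearest of the 8 genes below the threshold was acana, at 1.76-fold.

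The calls of 3 genes depend on B2. Without B2 the log2 ratio was 0.82 for MATN4, 0.11 for cnmd and 0.86 for chad, all below the log2 value of 2 that is 4-fold. MATN1 and snorc, both led by B3, passed 4-fold with any of the 4 libraries left out. With B2 left out, only B3 is set against the higher of B1 and B4. For chad the log2 ratio was also 1.96 when the counts were scaled by library totals alone.

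Among the aggrecan genes, acana and acanb are copies of the single aggrecan gene of mammals. Neither passed 4-fold in either direction. The gene acana had 14.6 CPM in B2 and 7.71 CPM in B3, against 8.32 CPM in B1 and 4.15 CPM in B4. B2 was highest, and B3 and B1 were close, with 276 counts in B3 and 284 in B1. The mean was 8.70 ± 4.35 CPM (SD, n = 4), with a log2 ratio of 0.81.

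The gene acanb had 46.6 CPM in B2 and 63.2 CPM in B3, against 69.2 CPM in B1 and 39.4 CPM in B4. Its libraries interleaved, with B1 and B3 above B2 and B4. The mean was 54.6 ± 13.9 CPM (SD, n = 4), the log2 ratio was -0.13, and the coefficient of variation (SD as a share of the mean) of 25.5% was the smallest of the 8 genes. For comparison the coefficient was 50.0% for acana and 84.3% to 167% for the 5 genes high in B2 or B3. Per 100 counts of acanb, acana had 31.4 counts in B2 and 12.2 in B3, against 12.0 in B1 and 10.5 in B4. The copies thus kept a like proportion in 3 libraries and differed from it in B2, where acana was highest and acanb was below B1 and B3. This proportion too was chosen after the values were seen, and the source of the difference was not tested.

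Link protein, encoded by hapln1a, fixes aggrecan to hyaluronan. It had 34.3 CPM in B2 and 33.4 CPM in B3, against 65.6 CPM in B1 and 45.7 CPM in B4. Both B1 and B4 were above B2 and B3, the reverse of the order of the 5 genes, but by less than 4-fold. The mean was 44.8 ± 15.0 CPM (SD, n = 4), and the log2 ratio was -0.93.

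The authors' second table gives YuGene values, a score between 0 and 1 that ranks genes within each library by their cumulative share of expression. By YuGene, MATN1 had 0.347 in B2 and 0.843 in B3, against 0.052 in B1 and 0 in B4. For MATN4 the scores were 0.759 in B2 and 0.337 in B3, against 0.197 in B1 and 0.209 in B4. For acanb they were 0.684 in B2 and 0.766 in B3, against 0.746 in B1 and 0.653 in B4. The highest library was the same by CPM and by YuGene for 7 of the 8 genes. The exception was acanb, whose highest library was B1 by CPM and B3 by YuGene.

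The other genes of cartilage were taken from a list of 37 IDs that leaves the 8 out. This list and those below were chosen with earlier results of these data known. They were scored on the same contrast that chose the 8, so their counts are a description, not a test. Of these, 29 reached 1 CPM in at least 1 library, and 13 of the 29 were high in B2 or B3, against 1.75% of all genes, while 2 were high in B1 or B4, near the 8.01% of all genes. The median log2 ratio over the 29 was 1.41, against -0.10 over all 18618 genes. Of the 13, 9 were highest in B2 and 4 in B3. Among all 325 genes high in B2 or B3, 185 were highest in B2 and 140 in B3. Without B2, 7 of the 29 were high in B3, against 0.851% of all genes. The list shares 2 COL10A1 IDs with a bone list, and without those IDs, in all 4 libraries, 11 of 27 were high in B2 or B3.

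COL2A1 (ENSDARG00000069093), the main fibrillar collagen of cartilage, had 886 CPM in B2 and 84.9 CPM in B3, against 22.7 CPM in B1 and 13.5 CPM in B4. The proteoglycan epyc, or epiphycan, had 130 CPM in B2 and 22.8 CPM in B3, against 3.75 CPM in B1 and 6.03 CPM in B4. COL9A2, a chain of the collagen that coats cartilage fibrils, had 119 CPM in B2 and 23.9 CPM in B3, against 7.94 CPM in B1 and 5.81 CPM in B4. In all 3, as in MATN4, B2 was highest and B3 second, while B1 and B4 came in the order of MATN4 for epyc and in the other order for COL2A1 and COL9A2. COL10A1 (ENSDARG00000054753), the collagen of hypertrophic cartilage in mammals, had 47.1 CPM in B2 and 393 CPM in B3, against 21.9 CPM in B1 and 0.68 CPM in B4. Its order was that of MATN1. The other COL10A1 ID (ENSDARG00000101535) had 22.2 CPM in B2 and 296 CPM in B3, against 47.0 CPM in B1 and 0.65 CPM in B4, so that B3 was again highest but B1 was above B2.

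MATN1 per 100 counts of COL2A1 (ENSDARG00000069093) was 1.49 in B2 and 115 in B3, against 5.28 in B1 and 0 in B4. COL2A1 is the reference of this proportion, so the high COL2A1 counts of B2 lower the proportion there. Per 100 counts of the same COL2A1 ID, B2 was the lowest library for MATN4, at 7.42, cnmd, at 25.5, chad, at 5.69, and acana, at 1.65. Nothing about MATN1 is therefore read from its low value in B2. A second ID with the symbol COL2A1 (ENSDARG00000011407) had 118 CPM in B2 and 58.6 CPM in B3, against 80.5 CPM in B1 and 51.3 CPM in B4, and was not high in B2 or B3. Reads of IDs with the same symbol, such as these COL2A1 or COL10A1 IDs, may have been split between them in counting. How alike their sequences are was not examined.

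Regulators of cartilage in the list had another order. SOX5, a partner of SOX9 in switching on cartilage genes and also active in neural cells, had 177 CPM in B2 and 196 CPM in B3, against 1236 CPM in B1 and 258 CPM in B4. SOX9 (ENSDARG00000003293) had 47.7 CPM in B2 and 114 CPM in B3, against 211 CPM in B1 and 95.1 CPM in B4. SOX6, a close relative of SOX5, had 52.8 CPM in B2 and 60.0 CPM in B3, against 175 CPM in B1 and 56.9 CPM in B4. All 3 were highest in B1, where MATN1, MATN4, cnmd, chad and snorc were below both B2 and B3. Some matrix genes of the list were not high in B2 or B3 either, and these were named after their values were seen. FMOD (ENSDARG00000044895) had 0.054 CPM in B2 and 0.17 CPM in B3, against 0.76 CPM in B1 and 3.35 CPM in B4. Its log2 ratio of -4.32 was the lowest of the 29. MATN3 (ENSDARG00000069265), another matrilin, had 1.11 CPM in B2 and 0 CPM in B3, against 0.26 CPM in B1 and 1.08 CPM in B4.

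**Figure D2:**
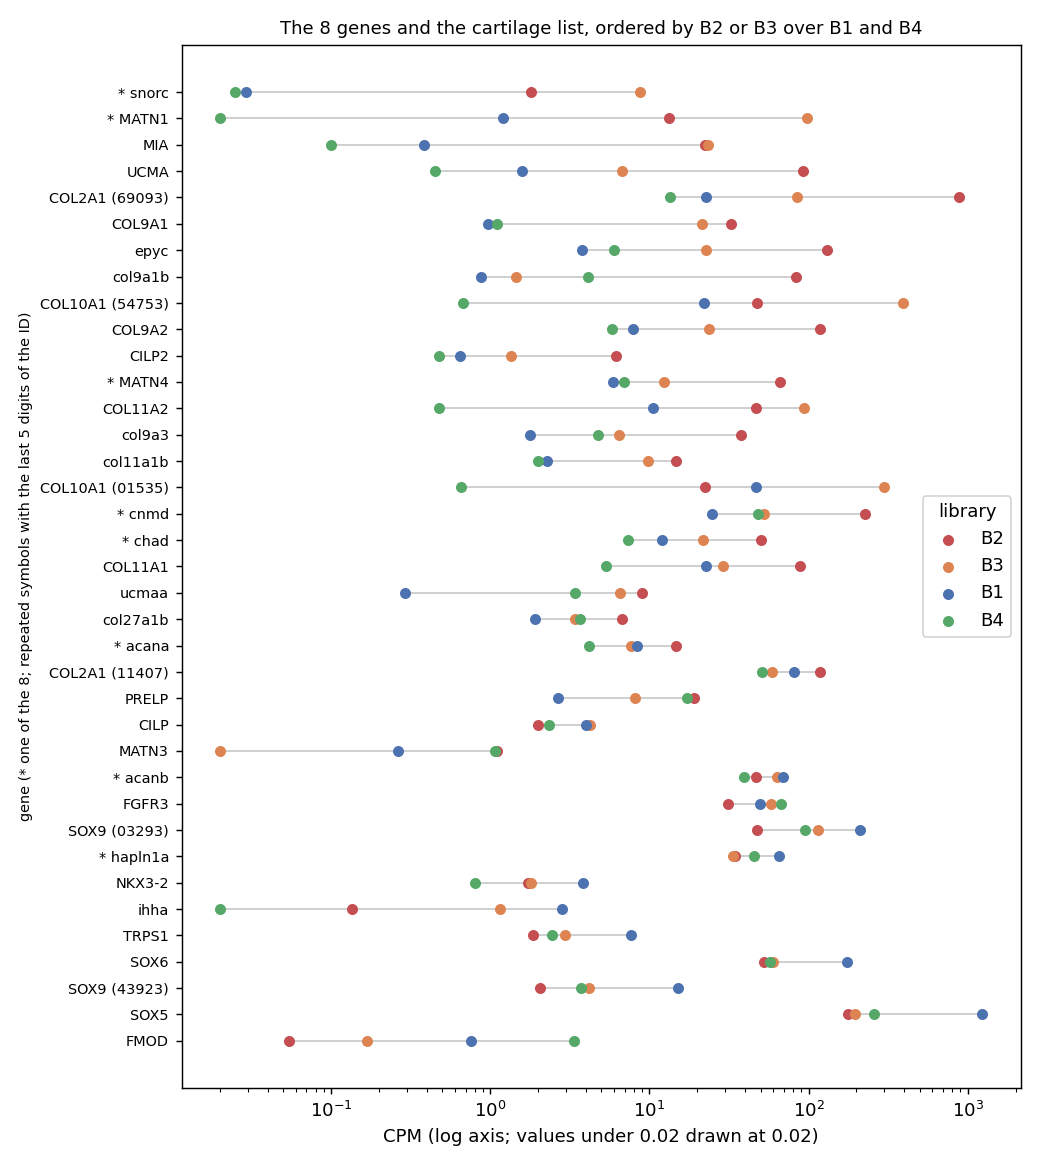
CPM (horizontal log axis, values under 0.02 drawn at 0.02) of the 8 genes, marked with an asterisk, and of the 29 cartilage list genes that reached 1 CPM. Each coloured point is 1 library, and rows are ordered by the library contrast. Collagens and small matrix proteins at the top have B2 and B3 to the right, while SOX5 and SOX6 near the bottom have B1 to the right. The lowest row, the matrix gene FMOD, has B4 to the right.

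Brain matrix genes encode the partners of aggrecan and link protein in brain. Of 18 brain matrix IDs, 14 reached 1 CPM, and 0 of the 14 were high in B2 or B3 and 0 in B1 or B4. With 1.75% and 8.01% of all genes high in these directions, counts of 0 among 14 are near the background. Their median log2 ratio was -0.29. Without B1 the count high in B2 or B3 was 2, HAPLN4 and HAS1, against 3.64% of all genes. Without B4 it was 1, HAPLN2, against 9.37% of all genes. These 3 genes were named after their values were seen. HAPLN2 and HAPLN4 are link proteins of brain, and HAS1 makes hyaluronan.

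The brain lectican bcan, or brevican, had 417 CPM in B2 and 527 CPM in B3, against 454 CPM in B1 and 350 CPM in B4. The lectican ncana, a copy of neurocan, had 57.4 CPM in B2 and 82.8 CPM in B3, against 228 CPM in B1 and 101 CPM in B4. The lectican vcanb, a copy of versican, had 32.9 CPM in B2 and 40.6 CPM in B3, against 58.5 CPM in B1 and 19.9 CPM in B4. No lectican gene that reached 1 CPM passed 4-fold, while by CPM ncana, vcanb and acanb were all highest in B1, acanb only narrowly.

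Per 100 counts of bcan, acanb had 11.2 counts in B2 and 12.0 in B3, against 15.2 in B1 and 11.3 in B4. For hapln1a the proportion was 8.23 in B2 and 6.34 in B3, against 14.4 in B1 and 13.1 in B4. For acana it was 3.50 in B2 and 1.46 in B3, against 1.83 in B1 and 1.19 in B4. The proportion of acanb to bcan thus spread least, and that of acana was highest in B2, of hapln1a in B1. By RefSeq gene order in GRCz12tu, HAPLN3 stands next to acanb and vcana next to hapln1a. No gene with a link protein symbol is among the 2 protein-coding genes on either side of acana. Those before acana have placeholder symbols, and what they encode was not examined. HAPLN3 had 6.23 CPM in B2 and 4.33 CPM in B3, against 16.6 CPM in B1 and 5.46 CPM in B4. By CPM it was highest in B1, as was its neighbour acanb, for which B3 was close to B1. The counts of vcana did not reach 1 CPM in any library, with 3 in B2 and 1 in B3, against 22 in B1 and 21 in B4.

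**Figure D3:**
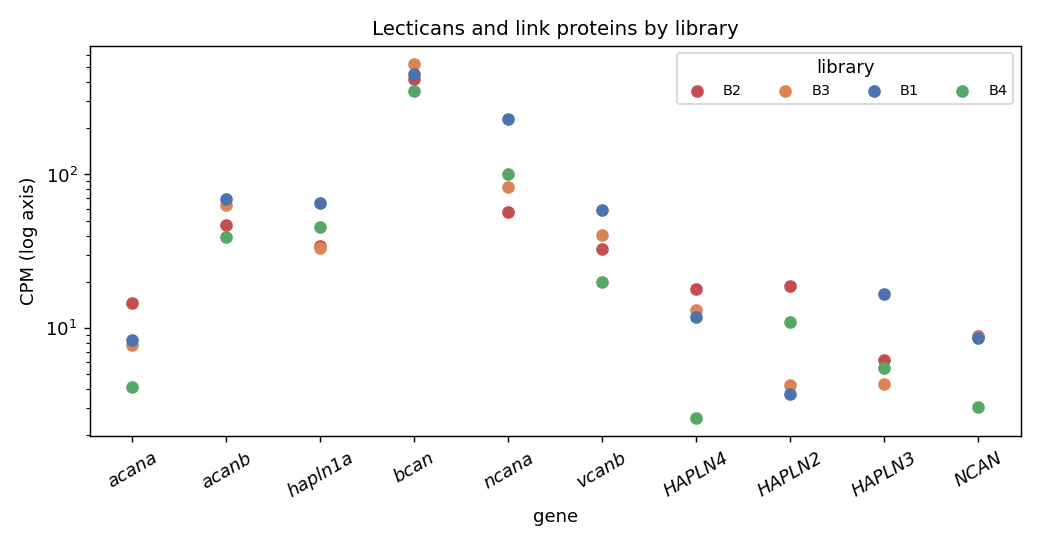
CPM (log axis) of acana, acanb and hapln1a and of 7 other lectican and link protein genes, each point 1 library. Levels of different genes are not comparable because no lengths were available. For acanb the libraries lie between 39.4 and 69.2 CPM, for hapln1a between 33.4 and 65.6 CPM and for acana between 4.15 and 14.6 CPM.

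Of 32 IDs on a list for the synthesis of chondroitin sulfate and related chains, several with the symbol CHST12, 25 reached 1 CPM. Among these, 0 were high in B2 or B3 and 1 in B1 or B4, with a median log2 ratio of 0.10. Set against 1.75% and 8.01% of all genes, these counts are near the background. PAPSS2 (ENSDARG00000056600), which makes the sulfate donor, had 83.6 CPM in B2 and 73.6 CPM in B3, against 48.6 CPM in B1 and 61.9 CPM in B4. A second PAPSS2 ID (ENSDARG00000071021) was highest in B4, at 21.4 CPM, against 17.9 CPM in B2. CSGALNACT1 (ENSDARG00000040535) had 28.1 CPM in B2 and 32.9 CPM in B3, against 129 CPM in B1 and 28.3 CPM in B4. FAM20B had 59.9 CPM in B2 and 56.5 CPM in B3, against 59.2 CPM in B1 and 56.2 CPM in B4. Of 13 IDs for proteases that cut aggrecan or other matrix, 12 reached 1 CPM, 1 was high in B2 or B3 and 1 in B1 or B4, against 1.75% and 8.01% of all genes. The one high in B2 or B3 was mmp13b, a collagenase gene, with 5.90 CPM in B2 and 18.6 CPM in B3, against 1.11 CPM in B1 and 0.85 CPM in B4. The one high in B1 was ADAMTS5, an aggrecanase gene named after its values were seen, with 0.73 CPM in B2 and 1.54 CPM in B3, against 14.1 CPM in B1 and 2.23 CPM in B4. Without B4 the protease count high in B2 or B3 was 2 and the chondroitin sulfate count 1, against 9.37% of all genes.

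Most markers of bone were high in B3, with MATN1 and snorc. Of 16 bone IDs, 15 reached 1 CPM, and 10 were high in B2 or B3, against 1.75% of all genes. The bone list too was chosen with earlier results of these data known, so this count is a description. All 10 were highest in B3, and the median log2 ratio of the 15 was 3.03. The summed level of the bone list was 465 CPM in B2 and 1807 CPM in B3, against 223 CPM in B1 and 86.9 CPM in B4. Without B3 the count was 3 genes, against 1.15% of all genes. The osteocalcin gene bglap had 83.1 CPM in B2 and 347 CPM in B3, against 4.72 CPM in B1 and 3.40 CPM in B4. The osteopontin gene spp1 had 75.9 CPM in B2 and 258 CPM in B3, against 3.22 CPM in B1 and 0.23 CPM in B4. Both genes kept the order of MATN1 and snorc, with B3 highest. Other bone genes did not pass 4-fold. PHEX was highest in B3, at 59.1 CPM, with a contrast of 3.85-fold. ALPL had 113.2 CPM in B2 and 78.4 CPM in B3, against 113.9 CPM in B1 and 61.3 CPM in B4. DLX5 had 5.58 CPM in B2 and 5.64 CPM in B3, against 6.24 CPM in B1 and 2.23 CPM in B4. Of the 15 bone genes, 12 were highest in B3 and 3 in B1. Of all 18618 genes, 3695 were highest in B3 and 6862 in B1. The part of bone or cartilage cells in the values of the 5 genes was not tested.

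The cartilage list summed to 2102 CPM in B2 and 1536 CPM in B3, against 1939 CPM in B1 and 613 CPM in B4. That of B1 is made up mostly of SOX5, SOX9 and SOX6. The fibroblast list summed to 2175 CPM in B2 and 5558 CPM in B3, against 1736 CPM in B1 and 1125 CPM in B4. Most of the B3 sum is COL1A2, at 1572 CPM, col1a1a, at 1375, COL1A1, at 1232, and DCN, at 1103. The median of the list was 31.1 CPM in B2 and 19.7 CPM in B3, against 12.7 CPM in B1 and 16.5 CPM in B4. By the 4-fold rule, 4 of its 21 genes were high in B2 or B3, against 1.75% of all genes. At 8-fold the fibroblast count was 0, against 0.709% of all genes. The fibroblast count was 1 without B3, 7 without B1 and 7 without B4, where 1.15%, 3.64% and 9.37% of all genes were high in B2 or B3. Of the 19 neuron genes that reached 1 CPM, 0 were high in B2 or B3, against 1.75% of all genes, and 7 were high in B1 or B4, against 8.01%. The list summed to 184 CPM in B2 and 189 CPM in B3, against 906 CPM in B1 and 315 CPM in B4. Without B1, 0 neuron genes were high in B4, against 0.568% of all genes. By CPM the neuron list, acanb and hapln1a were all highest in B1. For acanb the lead was small, at 69.2 CPM in B1 against 63.2 CPM in B3, and by YuGene B3 was highest. B1 was the highest library for 6862 of the 18618 genes, more than any other library. The part of neurons in the values of acanb and hapln1a was not tested either.

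**Figure D4:**
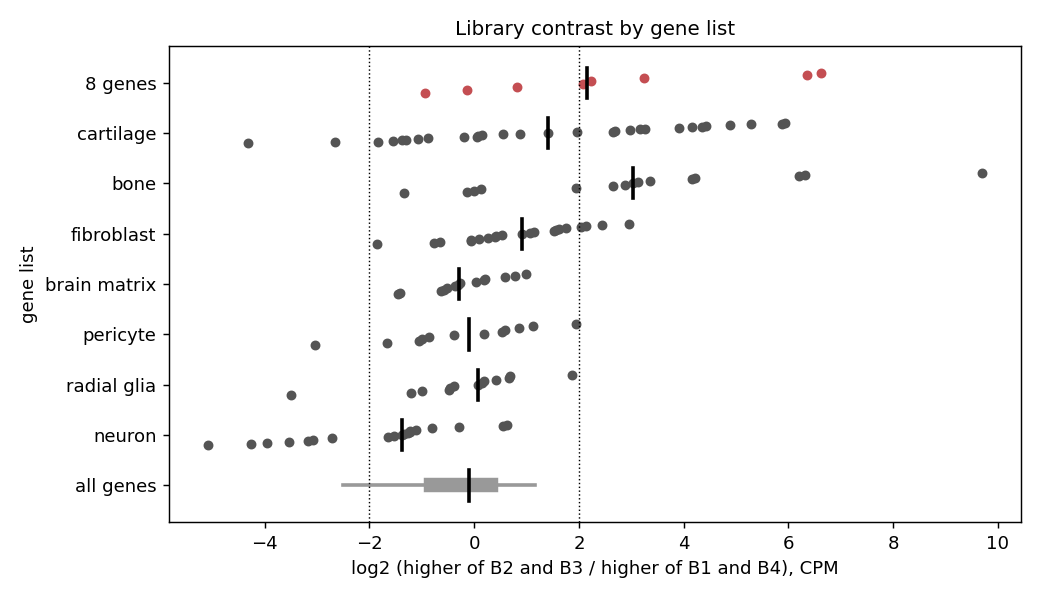
Log2 of the higher of B2 and B3 over the higher of B1 and B4 (horizontal axis) for the 8 genes and for gene lists, each point 1 gene, with vertical bars at medians and dotted lines at 4-fold in either direction. For all 18618 genes the thick bar spans the 25th to 75th and the thin one the 5th to 95th percentile. The snorc point is drawn with B1 and B4 at the 3-count floor, and the cartilage and bone medians of 1.41 and 3.03 lie right of the -0.10 of all genes.

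Of 7 blood genes that reached 1 CPM, 2 were high in B2 or B3, the globin genes hbaa1 and hbaa2, against 1.75% of all genes. The other 5 passed 4-fold in neither direction. Without B3 the count was 1, against 1.15% of all genes. The blood list summed to 555 CPM in B2 and 598 CPM in B3, against 180 CPM in B1 and 460 CPM in B4. Most of each sum is cahz, with 509 CPM in B2 and 534 CPM in B3, against 166 CPM in B1 and 426 CPM in B4. Of the pericyte list, 0 of 12 were high in B2 or B3 and 1, KCNE4, in B1 or B4, both near the 1.75% and 8.01% of all genes. The pericyte gene rgs5b came close to 4-fold, at 3.82-fold. It had 680 CPM in B2 and 204 CPM in B3, against 26.8 CPM in B1 and 178 CPM in B4. The radial glia list gave 0 of 13 high in B2 or B3, and 1 of 13, the stem cell factor SOX2, high in B1, again near the background. Without B4, 3 genes of each of these lists were high in B2 or B3, against 9.37% of all genes. Without B1, 1 of the pericyte list was, against 3.64%.

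**Figure D5:**
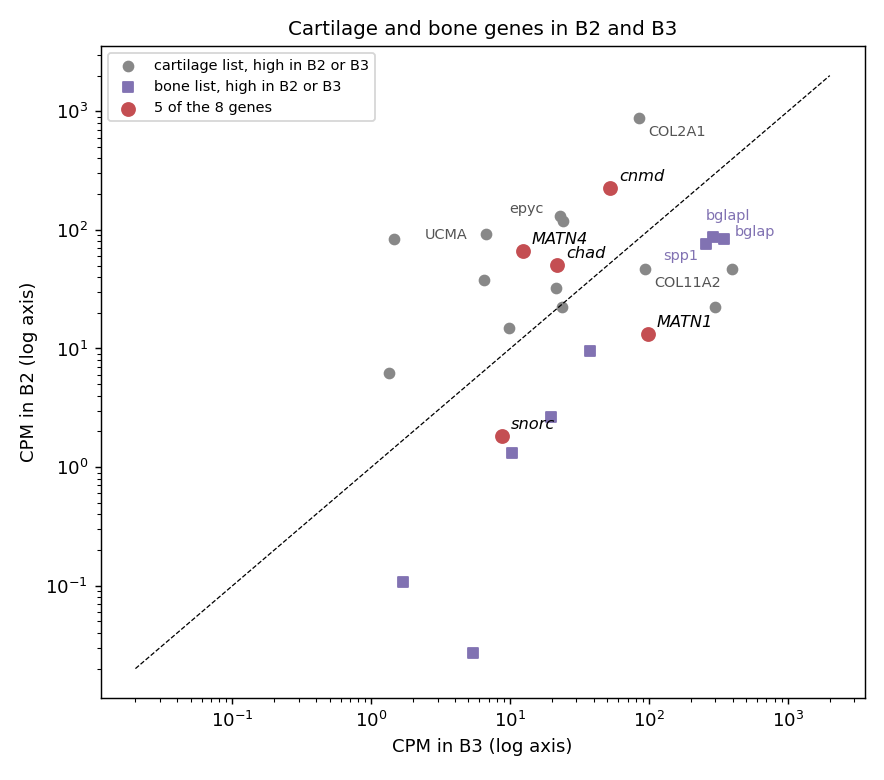
CPM in B2 (vertical log axis) against CPM in B3 (horizontal log axis) of the 5 genes and of cartilage and bone list genes high in B2 or B3, with the line of equal level dashed and COL10A1 drawn with the cartilage list. MATN4, cnmd and chad lie above the line with COL2A1, epyc and UCMA, while MATN1 and snorc lie below it, on the side of bglap, bglapl and spp1.

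The 5 genes thus fall on both sides of the line of equal level between B2 and B3. Of the 10 bone genes high in B2 or B3, all lie on the B3 side, with MATN1 and snorc. Of the 13 cartilage genes, 9 lie on the B2 side with MATN4, cnmd and chad. The COL10A1 IDs are in both counts. Among all 325 genes high in B2 or B3, 185 were highest in B2 and 140 in B3. The 9 of 13 is near that share, so nothing is read from it. UCMA, an inhibitor of mineralisation made by cartilage, had 92.7 CPM in B2 and 6.73 CPM in B3, against 1.58 CPM in B1 and 0.45 CPM in B4, named after its values were seen. The related list gene ucmaa had 9.05 CPM in B2 and 6.56 CPM in B3, against 0.29 CPM in B1 and 3.40 CPM in B4. It was not high in B2 or B3, with a contrast of 2.66-fold.

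The genes whose pattern over the 4 libraries lay nearest to each of the 8 were sought among 16276 other IDs. These had a symbol and a mean of at least 1 CPM. The measure was the root mean square distance of centred log2 CPM, with 2 counts added to each count. With 4 values per gene, such a distance is a description. MATN1 lay nearest to spp1, at 0.549 log2 units, and snorc to bglap, at 0.163. Both distances depend on the added counts, because snorc had 1 count in B1 and 1 in B4, and MATN1 had 0 in B4. Without the added counts, B3 over B1 was 297-fold for snorc and 73.6-fold for bglap. MATN4 lay nearest to the chemokine gene cxcl8a, at 0.143, cnmd to nfkbiaa, a gene for an inhibitor of NF-kappa-B, at 0.152, and chad to si:ch211-237l4.6, at 0.130. The gene acana lay nearest to SH3TC2, at 0.061, acanb to IRX1, at 0.022, and hapln1a to znf1160, at 0.022. The genes with the smallest distances were thus near acanb and hapln1a, whose libraries differ little. CILP2 of the cartilage list was among the 3 nearest to MATN4, at 0.258, behind PMP22 at 0.250, and COL10A1 (ENSDARG00000054753) to MATN1, at 1.04. For cnmd, chad, snorc, acana, acanb and hapln1a, none of the 3 nearest was on the cartilage list. Among IDs with a symbol and a mean of at least 10 CPM, bglapl, an osteocalcin-like gene, had the largest library contrast, a log2 ratio of 9.69. Next came MATN1 at 6.35, spp1 at 6.32, bglap at 6.20 and si:ch1073-504d15.3 at 6.01.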

How the data were processed

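RNA was sequenced from 4 libraries of the pericyte group. The authors deposited whole-number counts per gene ID and, in a second table, YuGene values, a score between 0 and 1 set within each library. The submitters' processing notes name bcl2fastq, R 3.2.2 and the build GRCz10, per the labels; for aligner, counter and annotation, nothing is given in the sources used here. Columns of values left out numbered 0. A symbol was matched to 26269 of 32105 IDs, and 94 list IDs by symbol without the final letter; 19 of 223 list entries matched none.

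CPM were computed from the deposited counts in R 4.3.3, using TMM factors from edgeR 4.0.16. A gene entered the contrast where any library reached 1 CPM, with libraries under 3 counts set to 3. The design, with 1 group, allows no test between groups. Members and lists were chosen with earlier results of these data known. Named list genes were those of highest mean CPM (up to 5 high in B2 or B3, 3 of the others and, in 6 lists, the top 8); exceptions are stated. A biological coefficient of variation planned with edgeR is not given, because it did not recover the spread given in a test on simulated data. Alternatives were DESeq2 1.42.0 size factors, library totals alone, folds of 2 and 8, no filter, YuGene in place of CPM and each library left out. No sequence or gene length was used here.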

Additional observations from a re-analysis of the deposited data

Results flagged for a closer look

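For 26 genes (the 8 and the named cartilage and brain matrix genes), the gap between the most extreme library and its nearest neighbour was divided by the whole range of the 4 libraries. The gap was above Dixon's 95% critical value for 4 libraries in 10 genes, 5 of them in B2, 3 in B3, 2 in B1 and 0 in B4. Chance flags about 1 in 20 groups, but the genes in which B2 or B3 stood apart had been chosen or named for being high in B2 or B3. For them the values restate that choice. SOX5 and SOX6, in which B1 stood apart, had been named for their mean CPM, which the high B1 value raises. For all 10 genes the values are thus a description, not a test.

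B2 stood apart for COL2A1 (ENSDARG00000069093) at 0.918, MATN4 at 0.893, cnmd at 0.864, epyc at 0.849 and COL9A2 at 0.840. B3 stood apart for COL10A1 (ENSDARG00000054753) at 0.882, MATN1 at 0.865 and COL10A1 (ENSDARG00000101535) at 0.843. B1 stood apart for SOX6 at 0.941 and SOX5 at 0.924. In all 10 the library that stood apart was the highest.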

How the results depend on the processing

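The share of all genes high in B2 or B3 was 6.50% at 2-fold and 0.709% at 8-fold, and ran between 0.851% (without B2) and 9.37% (without B4) with 1 library left out, at 3.64% without B1 and 1.15% without B3. The share high in B1 or B4 was 0.568% without B1. The cartilage count ran between 7 and 16 with 1 library left out, and the brain matrix count between 0 and 2. The cartilage count at 2-fold and 8-fold, 15 and 10, stayed within 1.5 times the 13, as it did with DESeq2 size factors, library totals alone and no filter. Of the 8 genes, MATN1, snorc, acana, acanb and hapln1a kept their side of 4-fold under every scaling and with each library left out; MATN4 and cnmd lost it without B2, and chad without B2 and with library totals alone. By YuGene, B3 was above B1 for acanb by 0.0198, opposite in sign to its CPM. No paired analysis was possible because the libraries form 1 group and their columns carry no sample number. Depth limits the ratios of snorc, MATN1 and vcana, whose lowest libraries had few or no counts.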
